A study of Mus musculus with 24 samples.

Results

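Ribosomal protein genes were taken as all rows of the count table whose symbol begins with Rpl or Rps and a number, with at most 1 further letter a, l, p, x or y, leaving out pseudogene rows with -ps in the symbol and the Rps6k kinases. The rule found 75 of 32962 rows, 44 for proteins of the large ribosomal subunit and 31 for proteins of the small subunit. The nuclei came from the lumbar spinal cord of male and female ICR/CD-1 mice aged 8 to 11 weeks, and were profiled by Drop-seq, which captures single nuclei in droplets and counts each captured RNA molecule by its unique molecular identifier (UMI). The protocol and the sample titles name the spinal cord, whereas the tissue field of the labels reads Brain. The formalin group (10 mice) received 30 µl of 2% paraformaldehyde in the plantar surface of both hindpaws. The rotarod group (5 mice) walked on a rod accelerating from rest to 40 rpm over 5 min, and both groups were habituated for 1 h before the challenge. The control group (9 mice) had neither challenge. Each library held 750 barcodes and is counted here as 1 mouse. The authors' annotation placed 13425 of the 18000 barcodes in a cell class and part of the neurons among them in families and clusters. The other neurons carry no family code and are counted in the neuron class only.

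Ribosomal proteins assemble with ribosomal RNA in the nucleolus into the large and small subunits, which are exported and join in the cytoplasm to translate messenger RNA. The mRNAs for these proteins are spliced quickly, leave the nucleus and are translated in the cytoplasm, and most of them begin with a pyrimidine tract that couples their translation to growth signals. A nuclear preparation therefore holds unspliced and newly made copies and whatever cytoplasmic mRNA stays with the nucleus. Most of these genes also have many processed pseudogenes in mammalian genomes, and many carry small nucleolar RNAs in their introns.

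Total UMIs per mouse were 549903 to 1707338 in formalin mice, 660286 to 3209063 in rotarod mice and 640279 to 3243587 in control mice. Of 17977 distinct barcode sequences, 19 occurred in more than 1 library. Formalin replicates 1 to 5 and 6 to 10 matched in pairs: the deviations of their neuron profiles from the group mean correlated at 0.283, 0.160, 0.129, 0.103 and 0.300 over genes, and each was the other's closest formalin mouse in all 5 pairs. Nothing in the labels says that these libraries share an animal, and the summed levels of formalin mice are also given with the pairs merged into 5. The titles of control replicates 7 to 9 end in cx. The class labels were checked against marker genes. Endothelial or vascular nuclei averaged 13166 CPM (UMIs per 1000000 UMIs of the same mouse and class) for their own markers (Flt1, Cldn5, Pecam1, Abcb1a, Ly6c1, Rgs5), against 50.1 in neurons, and neuron markers (Snap25, Rbfox3, Syt1, Snhg11) averaged 843 in the endothelial or vascular class against 9194 in neurons. The class labelled microglia went against its label in part, with 197 CPM for 6 microglial markers and 22876 for 4 globin genes.

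All 75 ribosomal protein genes had at least 1 UMI. The 75 genes together gave 23180 of 34919859 UMIs, and 17858 of the 31469475 UMIs in nuclei with a class, or 567 CPM (0.0567%). There were 47 genes with at least 100 UMIs, 25 with more than 10 and fewer than 100, and 3 with 10 or fewer, namely Rpl29 with 8, Rpl10l with 1 and Rpl6l with 1. The 6 genes with the most UMIs in classed nuclei held 28.3% of the total: Rpl4 with 1148, Rps14 with 947, Rps9 with 855, Rpl11 with 719, Rpl8 with 708 and Rpl41 with 674. Rpl4 lines the exit tunnel of the large subunit, Rps14 and Rps9 are small subunit proteins, and Rpl41 is among the smallest proteins known. The counting was not stated to use strand, and 42 of the 75 genes overlap another gene in GENCODE M21, 22 of them on the opposite strand, so that reads of the partners cannot be told apart there. Rps14 is annotated over 31449 bases and overlaps Ndst1 on the opposite strand, and 26 of the genes hold a small nucleolar RNA. The genes are short, with a median span of 3232 bases (828 to 31449) against 11725 bases for the 30397 genes of the table that matched the annotation.

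Endothelial or vascular nuclei had about 6 times the summed ribosomal protein level of neurons of the same mice. In control mice the summed level ranged over 9 mice from 1967 to 3130 CPM, with a median of 2573, in endothelial or vascular nuclei, against 326 to 517 with a median of 418 in neurons. The 2 ranges did not meet. The ratio was 5.95 for the means, between 4.36 and 7.89 in single control mice, and above 1 in 9 of 9. Over all mice with both classes the ratio of means was 5.87, with single mice between 2.61 and 9.05 and endothelial or vascular nuclei higher in 23 of 23. The large subunit genes summed to 1238 CPM in the endothelial or vascular class against 261 in neurons (means over all mice), and the small subunit genes to 1310 in the endothelial or vascular class against 180 in neurons.

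**Figure D1:**
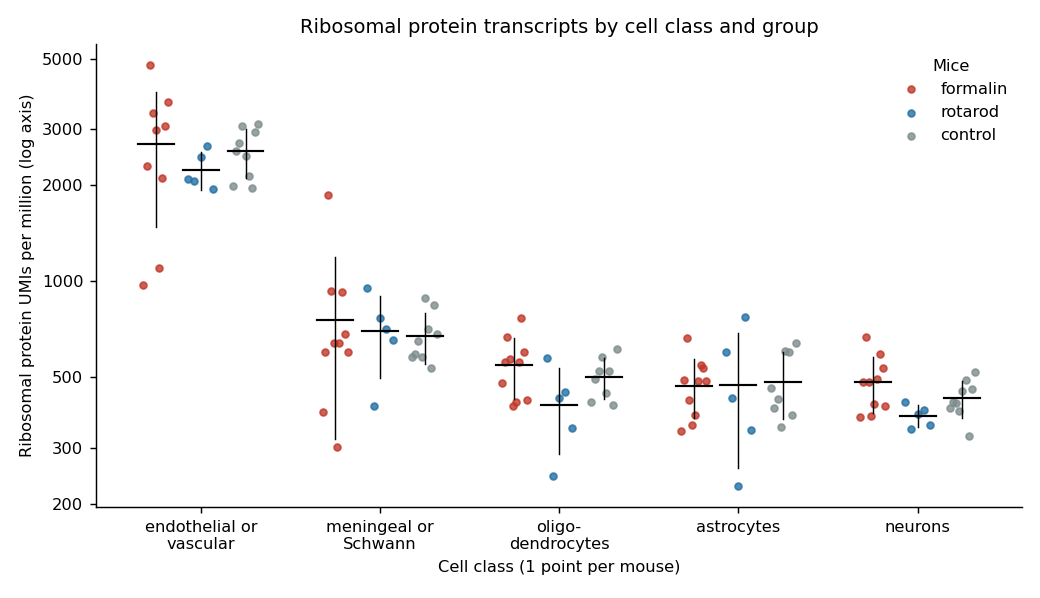
Summed CPM of the 75 ribosomal protein genes (log axis) by cell class, 1 point per mouse, with formalin, rotarod and control mice left to right in each class, horizontal lines at the group mean and vertical lines for 1 SD. Endothelial or vascular nuclei lie at 975 or above in every mouse shown, and the 3 groups overlap within each class.

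The other classes lay closer to neurons. In control mice meningeal or Schwann nuclei averaged 673 ± 123 CPM (SD, n = 9), against 430 ± 57.2 in neurons (SD, n = 9), and were higher in 9 of 9 mice, with ratios between 1.32 and 1.96. This class held Schwann markers at 5166 CPM and meningeal markers at 1227, as means over all mice. Oligodendrocytes averaged 499 ± 73.4 (SD, n = 8) and exceeded neurons in 7 of 8 control mice, and astrocytes averaged 483 ± 115 (SD, n = 8) and exceeded neurons in 6 of 8. With nuclei thinned to 500 UMIs, which leaves out shallower nuclei and counts every nucleus alike, the log2 ratio to neurons was −0.01 for oligodendrocytes and −0.05 for astrocytes, while it was 0.31 for meningeal or Schwann nuclei and 2.24 for endothelial or vascular nuclei, against 2.57 unthinned. Oligodendrocyte precursors had enough nuclei in 3 control mice, with 735 ± 52.7 (SD, n = 3), and exceeded neurons in 3 of 3.

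From the lowest level to the highest, the order in control mice was neurons, astrocytes, oligodendrocytes, meningeal or Schwann cells, oligodendrocyte precursors and endothelial or vascular cells. Neighbouring classes differed within mice by 64.0 ± 79.7 CPM for astrocytes over neurons and by 16.4 ± 121 for oligodendrocytes over astrocytes, both within 1 SD (n = 8). The step from oligodendrocytes to meningeal or Schwann cells was 172 ± 128 and was positive in 8 of 8 mice. Precursors stood 29.7 ± 212 above meningeal or Schwann cells in 3 mice, which is again within the spread. The last step, endothelial or vascular cells over precursors, was 1661 ± 377 in the 3 mice with both.

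Other RNA differed between endothelial or vascular nuclei and neurons as well. As means over all mice, the 4 globin genes were at 3754 CPM in the endothelial or vascular class against 216 in neurons, the mitochondrially encoded genes at 45889 against 8077, and the long RNAs kept in the nucleus (Malat1, Meg3 and 6 others) at 53175 against 75574. These long RNAs include Snhg11, which is also among the neuron markers above. In the gene-by-gene fit in control mice, log2 fold changes over neurons were −4.14 for Snhg11, −2.98 for Meg3 and 2.75 for Neat1. The sum of the long RNAs is therefore no plain measure of nuclear RNA. With only the nuclei that held 0 globin UMIs, the pooled ribosomal protein level was 2489 CPM over 571 endothelial or vascular nuclei, compared with 416 over 6029 neurons. Per control mouse these globin-free nuclei gave 2543 ± 615 CPM for the endothelial or vascular class, against 426 ± 60.3 for neurons (SD, n = 9 each), with ratios between 4.14 and 10.2. In the 25% of nuclei with the lowest mitochondrially encoded share the level was 2565 CPM in endothelial or vascular nuclei, where mitochondrially encoded RNA stood at 24276, against 356 in neurons, where it stood at 2139. The part of cytoplasmic RNA in the difference was not tested beyond these values.

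The share of nuclei with at least 1 ribosomal protein UMI was 87.5% of 727 endothelial or vascular nuclei (95% exact binomial interval 84.9 to 89.8), at a median of 1538 UMIs per nucleus, against 62.9% of 7103 neurons (61.8 to 64.1), at a median of 2214. Thinned to 500 UMIs per nucleus, leaving out shallower nuclei, the shares were 62.2% of endothelial or vascular nuclei (58.5 to 65.8) and 20.6% of neurons. The intervals cover counting error only. At the same thinned depth the shares were 26.6% in meningeal or Schwann nuclei, 20.9% in oligodendrocytes and 19.3% in astrocytes. No class here should lack these genes, so free RNA in the droplets has no class to be read from and its share in the low levels was not tested.

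Within neurons the level went down with depth. Over all mice pooled, neurons ordered by UMIs per nucleus gave 571, 548, 457 and 360 CPM from the shallowest 25% to the deepest 25%, whose median UMIs per nucleus were 898 and 5639. Endothelial or vascular nuclei gave 2220, 2491, 2249 and 2716 over their own 4 depth bins, with no such order.

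**Figure D2:**
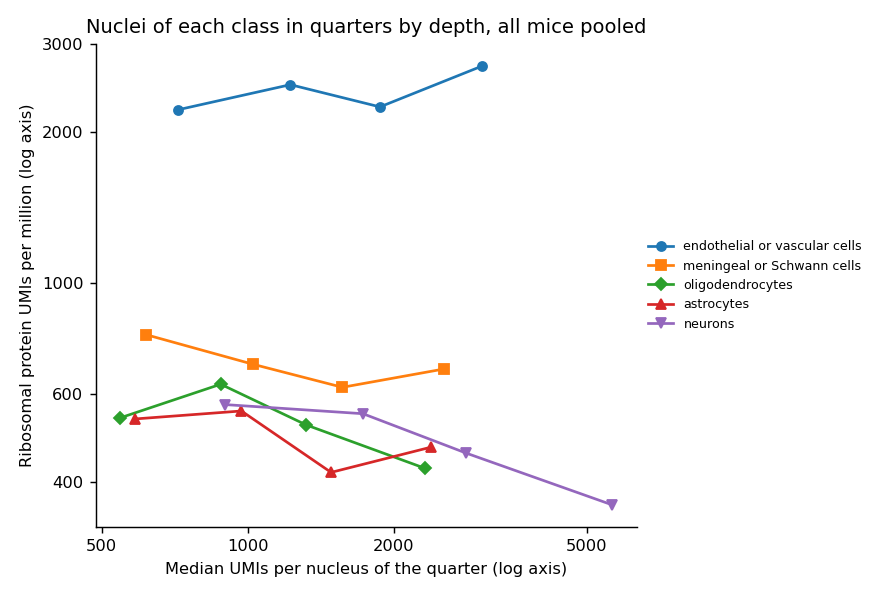
Summed ribosomal protein CPM (log axis) against the median UMIs per nucleus (log axis) of the 4 depth bins of each class, each with 25% of its nuclei, all mice pooled. The neuron line goes down from 571 to 360 with depth, and the endothelial or vascular line stays between 2220 and 2716.

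The difference between endothelial or vascular nuclei and neurons was tested gene by gene in the control mice with edgeR's quasi-likelihood test on summed counts per mouse and class, with the mouse as a block. The filter on low counts left 4190 genes, of which 68.4% were called in either direction, 25% higher and 43.5% lower, at a Benjamini-Hochberg adjusted p under 0.05. Only 6 of the 75 ribosomal protein genes passed that filter, and all 6 were called higher. A gene that passes a filter only because of the class where it is high had to differ, so this count is no measure of the 75. All 6 stood below Rpl11 in neurons (25.7 CPM over all mice pooled, against 7.83 for Rps20), and Rpl11 did not pass. The 6 genes thus passed through the endothelial or vascular sums, so their p-values are no support of their own and are not given. The median log2 fold change of all 4190 genes was −0.35 on this scale, −0.52 with DESeq2's size factors and −0.04 with total UMIs, and the changes below are to be read against it. Shorter genes tended to be higher in endothelial or vascular nuclei: over the 4145 genes with a span the fold change had a Spearman rho of −0.26 with gene span, as a description, and its fitted value at the spans of the 6 ribosomal protein genes had a median of 1.04. Their median log2 fold change was 3.15, and 2.52 with that trend removed. Both values come from genes that passed through the class where they are high, so neither is a measure of the 75. The part of gene span in the difference was not tested. Rps20, a protein of the small subunit head, had the largest fold change. Its level in control mice had a lowest value of 49.3, a median of 137 and a highest value of 260 CPM in endothelial or vascular nuclei, against 3.36, 4.76 and 15.3 in neurons. Every endothelial or vascular value stood above every neuron value, and the log2 fold change of Rps20 was 4.06 ± 0.29 (SE).

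Rps14, another small subunit protein, had 118, 205 and 314 CPM as lowest, median and highest value in the endothelial or vascular class and 11.4, 13.5 and 31.6 in neurons, with a log2 fold change of 3.32 ± 0.25 (SE). Rps9 had 72.4, 150 and 202 CPM in the endothelial or vascular class and 0, 13.3 and 28.5 in neurons, with a log2 fold change of 2.98 ± 0.27. In both genes the lowest endothelial or vascular mouse stood above the highest neuron value. Of the large subunit, Rpl22 had 59.1, 115 and 205 CPM in the endothelial or vascular class and 9.53, 16.0 and 22.0 in neurons (log2 fold change 2.76 ± 0.28). Rpl4 had 101, 207 and 325 CPM in the endothelial or vascular class and 16.8, 21.8 and 37.7 in neurons (2.68 ± 0.25). The classes overlapped in neither gene. In the control mice 12 of the 75 ribosomal protein genes had all 9 endothelial or vascular values above all 9 neuron values, against 2.9% of the 27624 genes with a UMI in these sums. Besides the genes called higher they were Rpl8, Rpl14, Rpl23, Rpl32, Rpl37 and Rps26, named after their values were seen.

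Because the filter removed most of the 75, the fit was repeated on all genes with at least 30 UMIs over the sums, a choice made after seeing the data. It tested 46 ribosomal protein genes, of which 30 were called higher and 3 lower in endothelial or vascular nuclei, where 14.6% and 41.7% of all 13521 genes were called higher and lower. The median log2 fold change was 1.66 over the 46 genes and −0.75 over all genes. The genes called higher ran from Rpl38 (1.15 ± 0.39, SE) to Rps20 (3.53 ± 0.31), with Rpl8 at 2.74 ± 0.29, Rpl39 at 2.70 ± 0.49, Rpl37 at 2.64 ± 0.42, Rpl18 at 2.55 ± 0.57 and Rpl26 at 2.44 ± 0.42. The number called higher was 30 with DESeq2, 31 with DESeq2's size factors in edgeR, 32 with total UMIs, and 13 of 16 tested with nuclei thinned to 500 UMIs. The number called lower was 1, 2, 0 and 0 under the same settings. The share of all genes called is not given for these settings, so the counts describe only how the number moved.

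The 3 genes called lower were Rps25, Rpl11 and Rpl5. Rpl11 and Rpl5 bind Mdm2 together with 5S ribosomal RNA and so link ribosome assembly to p53, besides their place in the large subunit. Rpl11 was the fourth most abundant of all 75 and the only one of the 6 most abundant genes that was not called higher. It had 6 UMIs in 4 of 9 endothelial or vascular sums (12.0 ± 22.1 CPM, SD), against 248 UMIs in 9 of 9 neuron sums (24.4 ± 8.02, SD). The log2 fold change of Rpl11 was −1.90 ± 0.54 (SE), and it was −1.15 with total UMIs, where it no longer passed (edgeR adjusted p = 0.0889). Rpl5 (−1.62 ± 0.73) rested on 3 UMIs and Rps25 on 0 UMIs in the endothelial or vascular sums, so that the fitted fold change of Rps25 depends on the prior count. Over all mice pooled both went the other way, with a ratio to neurons of 1.38 for Rpl5 and 1.27 for Rps25. With its pseudogene row added, Rps25 stood at 4.39.

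The neighbouring classes were tested in the same way. Under the main filter 0 of the 75 genes could be tested in oligodendrocytes, meningeal or Schwann cells and astrocytes, where 64.4%, 62.2% and 57.4% of tested genes were called. With at least 30 UMIs over the sums, meningeal or Schwann cells had 45 genes tested with 8 higher and 1 lower than neurons (19.6% and 25.4% of all genes were called higher and lower). The 8 included Rpl39 (log2 fold change 1.50), Rps9 (1.23), Rps3 (1.11), Rpl41 (1.09), Rpl14 (1.02), Rpl8 (1.00) and Rps26 (0.91). With nuclei thinned to 500 UMIs, 0 of these calls were made in meningeal or Schwann cells and 2 genes were called lower. The share of all genes called with thinned nuclei is not given. Thinning lowers the sums that this filter uses, so a missing call need not mean a gene that was tested. Astrocytes had 44 tested with 1 higher (Rps14, 1.02) and 2 lower (Rpl38, −2.13; Rpl11, −1.71), where 11.4% and 25.7% of all genes were called higher and lower. Oligodendrocytes had 45 tested with 0 higher and 1 lower (Rpl31, at 0 UMIs in the 8 control sums), where 15.2% and 27.4% were called higher and lower. Rpl11 was the gene called lower in meningeal or Schwann cells, and it was called lower there and in astrocytes under each of the 5 scalings and tools run on this filter (log2 fold changes of −1.04 to −2.21 and −1.53 to −2.61). Without control replicate 1 it was not called in astrocytes (−1.23, edgeR adjusted p = 0.0867), while in meningeal or Schwann cells it was called without each of the 9 control mice in turn. In oligodendrocytes it was not called (−0.43).

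Gene by gene, the ratio of endothelial or vascular nuclei to neurons varied over more than 1 order of magnitude. Over all mice pooled, the 67 genes with at least 30 UMIs in classed nuclei had a median ratio of 4.67, from 0.492 for Rpl3 to 16.4 for Rps20. The ratio was 5 or more in 32 genes (16 large and 16 small subunit), 2 to 5 in 13, 1 to 2 in 11 and under 1 in 11. Rps14 stood at 12.9, Rpl39 at 11.2, Rps3 at 11.2, Rpl37 at 11.0, Rpl8 at 10.8 and Rpl18 at 10.6. The genes under 1 were Rpl3 (0.492), Rpl36 (0.564), Rps27a (0.577), Rpl23a (0.587), Rpl12 (0.615), Rpl34 (0.632), Rpl11 (0.644), Rpl9 (0.690), Rpl10a (0.697), Rpl27 (0.728) and Rpl35 (0.837). Of these 11 genes, 10 belong to the large subunit, as do 44 of all 75, and Rps27a is the small subunit gene whose protein is made as a fusion to ubiquitin. Apart from Rpl11 with 22 UMIs, each of the 11 had between 1 (Rps27a) and 5 (Rpl3, Rpl12) UMIs in endothelial or vascular nuclei. Their ratios are therefore uncertain, and whether single ones differ from 1 was not tested on these pooled counts.

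The 32 genes with a ratio of 5 or more held 88.6% of the ribosomal protein UMIs in endothelial or vascular nuclei and 61.7% in neurons. The 22 genes with a ratio under 2 held 4.68% in endothelial or vascular nuclei and 27.1% in neurons, where they summed to 117 and 115 CPM. The levels of the 67 genes in the 2 classes were ranked alike, with a Spearman rho of 0.78, and the ratio had a rho of −0.36 with the number of named pseudogene rows and of 0.07 with gene span. These 3 correlations are across genes of the same libraries and are given as descriptions.

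**Figure D3:**
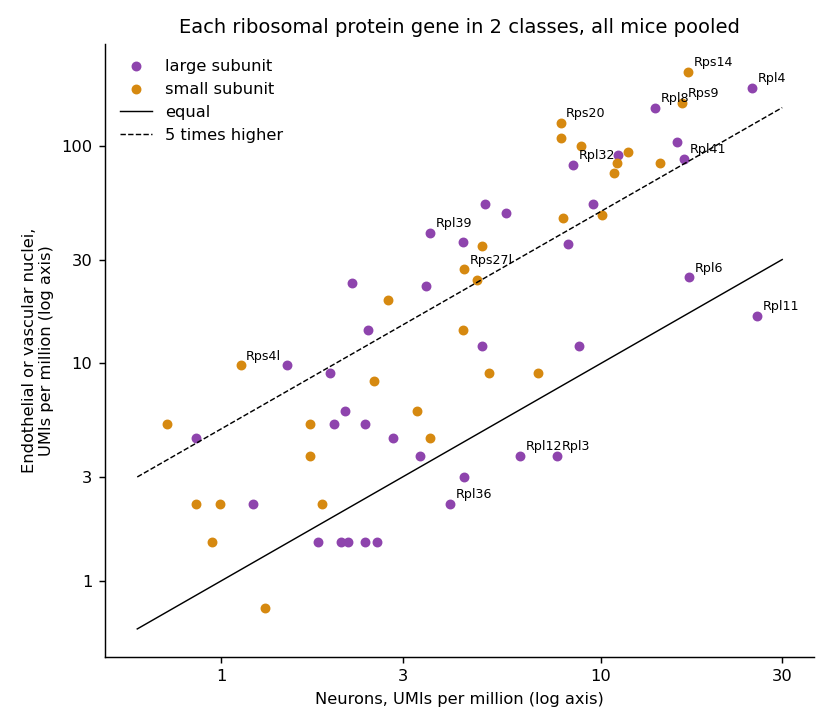
Each ribosomal protein gene with at least 30 UMIs in classed nuclei, by CPM in endothelial or vascular nuclei (vertical, log axis) and neurons (horizontal, log axis), all mice pooled; purple points are large subunit genes and orange points small subunit genes. Most points lie near or above the dashed line of a 5-fold difference, and Rpl11, Rpl12, Rpl3 and Rpl36 lie below the solid line of equal level.

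The start regions of these genes are shown for genes of high and low ratio, since the genes share sequence features there. The 54 members with an entry in the RefSeq promoter table were searched from 75 bases before to 25 bases after the start. The pyrimidine motif CTTTC stood on the gene's strand in 22 of 54 (40.7%), against 14.6% of all 27025 genes, and on either strand in 46.3% against 25.9%. The longer CTCTTTC, which contains CTTTC, stood on the gene's strand in 14.8% against 1.61%, and CGGAAG, the core of the site for ETS-family factors, in 29.6% against 6.05%, or on either strand in 42.6% against 10.7%. A match is only a match of letters in this window. Below are 3 genes that were called higher in endothelial or vascular nuclei and the 3 genes of lowest ratio that had at least 100 UMIs in neurons and an entry (0.615 for Rpl12, 0.644 for Rpl11 and 1.32 for Rps18), 5′ to 3′ on the gene's strand, GRCm38.p6, with these motifs (CTTTC on the gene's strand, the ETS core on either strand) in capitals.
Rpl22 (chr4:152325651-152325750, plus strand): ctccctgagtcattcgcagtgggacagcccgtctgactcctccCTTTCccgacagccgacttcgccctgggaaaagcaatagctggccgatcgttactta
Rpl4 (chr9:64173312-64173411, plus strand): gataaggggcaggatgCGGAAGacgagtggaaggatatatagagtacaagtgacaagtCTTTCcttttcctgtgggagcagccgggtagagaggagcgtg
Rps9 (chr7:3703966-3704065, plus strand): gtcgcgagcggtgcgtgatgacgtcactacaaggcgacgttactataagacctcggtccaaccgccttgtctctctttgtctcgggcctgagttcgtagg
Rpl12 (chr2:32961637-32961736, plus strand): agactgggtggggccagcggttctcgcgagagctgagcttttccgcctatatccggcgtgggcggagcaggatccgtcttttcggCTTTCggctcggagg
Rpl11 (chr4:136053369-136053468, minus strand): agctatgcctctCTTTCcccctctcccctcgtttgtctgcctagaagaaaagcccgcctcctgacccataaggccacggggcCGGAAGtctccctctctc
Rps18 (chr17:33955641-33955740, minus strand): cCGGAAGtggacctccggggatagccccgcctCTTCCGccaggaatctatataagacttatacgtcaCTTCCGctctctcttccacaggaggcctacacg
Rpl22 and Rpl12 hold CTTTC alone, Rpl4 and Rpl11 hold both motifs, Rps18 holds the ETS core on both strands and no CTTTC, and Rps9 holds neither motif in the window.

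Named pseudogene rows took reads beside the genes themselves. The table holds 187 rows named as ribosomal protein pseudogenes, with 7540 UMIs, or 32.5 for every 100 UMIs of the 75 genes. For 51 of the 75 there was at least 1 such row, and for 12 the pseudogene rows held more UMIs than the gene. Reads of near-identical copies can be assigned to either row, so values of these genes are uncertain. In the 20 genes whose pseudogene rows had at least 30 UMIs, the ratio of endothelial or vascular nuclei to neurons had a median of 7.93 in the pseudogene rows (0.577 to 18.2), against 4.74 in the genes' own rows, and was the higher of the 2 in 14 of 20. For Rpl10a the own row gave 0.70, the pseudogene rows 8.12 and both together 5.05. For Rpl3 the same 3 values were 0.49, 4.38 and 2.43, for Rpl9 they were 0.69, 7.74 and 4.57, and for Rps13 1.78, 11.5 and 6.43. Rpl30 went the other way, with 4.67, 0.58 and 1.11.

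With pseudogene rows added, 5 of the 67 genes remained under a ratio of 1 in place of 11, 15 under 2 in place of 22, and 35 were at 5 or more in place of 32, while the median was 5.28 in place of 4.67. Rpl11, which has no named pseudogene row, and Rpl12 and Rpl34 stayed under 1. Of the 21 genes of the 67 with no such row, 13 had a ratio of 5 or more and Rpl11 was the 1 under 1. Rpl6l and Rps4l, which the rule includes, are themselves annotated as pseudogenes in GENCODE M21.

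Rpl10l and Rpl3l, paralogs of tissue-restricted expression, were barely detected. Rpl10l, which in mice replaces the X-linked Rpl10 in male germ cells, had 1 UMI against 21 for Rpl10 over all barcodes. Rpl3l, known from skeletal and cardiac muscle, had 30 UMIs against 268 for Rpl3. Rps27l had more UMIs than Rps27: in control mice it had 15 UMIs in endothelial or vascular nuclei and 50 in neurons, against 1 and 8 for Rps27. The part of reads assigned to near-identical copies in the low counts of Rps27 and Rpl10 was not tested. Rps27l was called higher in endothelial or vascular nuclei on the filter of 30 UMIs (log2 fold change 1.66 ± 0.51, SE). Rps4l had 8 and 15 UMIs in these classes, against 2 and 9 for Rps4x, on a row that overlaps Tmtc1 on the opposite strand. Rpl36a had 0 and 10.

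Genes that work with the ribosome were compared between endothelial or vascular nuclei and neurons by the same fit, where 25% of all 4190 genes tested were called higher and 43.5% lower. The counts below are given beside those shares. The filter is the same, so a gene high in either class can have passed through that class alone. Such a gene had to differ, so its call is no support of its own. Among 25 translation factors, 5 were tested, with 3 higher and 1 lower: Pabpc1, which binds poly(A) tails, at a log2 fold change of 2.37, Eif4g2, an initiation scaffold, at 1.97, and Larp1, which binds the pyrimidine tract of ribosomal protein mRNAs, at −1.29. Among 23 ribosome biogenesis genes 5 were tested, with 2 higher and 3 lower, including the nucleolar protein Ncl at 1.61, the box C/D particle protein Nop56 at −2.50 and the RNA polymerase I subunit Polr1a at −1.92. Of the 9 ribosomal proteins with other names 1 was tested, the acidic stalk protein Rplp1 at 3.29. Of 75 mitochondrial ribosomal proteins 1 was tested and 0 were called with edgeR. In summed level, translation factors averaged 1678 CPM in the endothelial or vascular class against 793 in neurons, biogenesis genes 879 against 646, mitochondrial ribosomal proteins 1293 against 961, and the ribosomal proteins with other names 441 against 66.3 (means over all mice). In the same fit 8 of the 8 tested mitochondrially encoded genes were higher, and of the 8 tested nuclear long RNAs 1 was higher and 6 lower, with Neat1 at 2.75 and Snhg11 at −4.14.

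The challenges were compared within each class, and no ribosomal protein gene that passed the main filter was called. That filter left 14 of the 75 in neurons, 2 in endothelial or vascular nuclei and 0 in oligodendrocytes, meningeal or Schwann cells and astrocytes. In neurons the summed level had a lowest value of 374, a median of 483 and a highest value of 666 CPM in formalin mice, and was 416, 344, 383, 395 and 354 in the 5 rotarod mice. In control mice the same 3 values were 326, 418 and 517. The means were 482 ± 95.4 in formalin mice (SD, n = 10), 379 ± 29.6 in rotarod mice (SD, n = 5) and 430 ± 57.2 in control mice (SD, n = 9). The groups overlapped, with 3 of 10 formalin mice above the highest control mouse, 0 of 5 rotarod mice above the control median and 6 of 10 formalin mice above the highest rotarod mouse. The log2 ratio of means was 0.16 for formalin over control, −0.18 for rotarod over control and 0.35 for formalin over rotarod. These 3 comparisons share mice, as both challenges are set against the same controls. With the formalin pairs merged, the level was 479 ± 97.5 (SD, n = 5). Of these 5 pairs, 1 stood above the highest control mouse and 3 above the highest rotarod mouse.

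Several other quantities moved with the groups in neurons. UMIs per neuron nucleus averaged 2568 ± 918 in formalin mice, 3218 ± 1743 in rotarod mice and 3159 ± 1094 in control mice (SD). The median globin level was 161, 100 and 33.6 CPM in formalin, rotarod and control mice, with 1 formalin mouse at 2181. The summed ribosomal protein level of neurons with 0 globin UMIs was 475 ± 92.0 CPM in formalin mice, 375 ± 34.7 in rotarod mice and 426 ± 60.3 in control mice. In nuclei thinned to 500 UMIs it was 514 ± 125 in formalin mice, 377 ± 111 in rotarod mice and 506 ± 74.4 in control mice. Rotarod mice had the lowest mean in both. Translation factors stood at 862 ± 87.2 CPM in formalin mice, 726 ± 96.9 in rotarod mice and 753 ± 63.2 in control mice. Pseudogene rows stood at 130 ± 39.1 in formalin mice, 109 ± 5.82 in rotarod mice and 109 ± 18.6 in control mice. Mitochondrially encoded genes had their lowest mean in formalin mice and their highest in rotarod mice, at 6531 ± 2945 CPM in formalin mice, 10850 ± 2738 in rotarod mice and 8254 ± 5517 in control mice. Counted without the UMIs of those genes, the summed ribosomal protein level was 485 ± 97.3 in formalin mice, 383 ± 30.6 in rotarod mice and 433 ± 59.1 in control mice, which kept the order of the 3 means. The part of the other quantities in the group values was not tested.

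In the gene-by-gene fit 14 of the 75 genes passed the filter in neurons, among 9103 genes. With edgeR 0 of 14 were called for formalin against control (0% of all genes; 1 at an unadjusted p under 0.05), 0 for rotarod against control (0%; 0 at an unadjusted p under 0.05) and 0 for formalin against rotarod (2.15%; 2 at an unadjusted p under 0.05). DESeq2 also called 0 in each. Rpl41 had the smallest p for formalin against control. Its level had a lowest value of 11.3, a median of 23.9 and a highest value of 34.9 CPM in formalin mice, and 10.5, 14.3 and 25.5 in control mice. The 5 rotarod mice had 15.4, 17.4, 21.8, 12.0 and 13.5. The log2 fold change of Rpl41 was 0.55 ± 0.20 for formalin against control (SE, edgeR adjusted p = 0.515) and 0.55 ± 0.25 for formalin against rotarod (edgeR adjusted p = 0.234), and the 3 groups overlapped.

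The next smallest p values for formalin against control belonged to Rpl6 (log2 fold change 0.32), Rpl38 (−0.47) and Rps21 (−0.38). For rotarod against control they were Rpl38 (−0.60), Rpl14 (−0.44), Rpl22 (−0.32) and Rps21 (−0.45), and for formalin against rotarod, after Rpl41, Rpl6 (0.51), Rpl14 (0.51) and Rpl22 (0.39). The sign was positive in 9 of 14 genes for formalin against control, with a median of 0.07, in 1 of 14 for rotarod against control, with a median of −0.19, and in 12 of 14 for formalin against rotarod, with a median of 0.29. Over all genes, log2 fold changes in neurons had a Spearman rho with gene span of −0.26, 0.40 and −0.49 in these 3 comparisons (8949 genes, as a description). With that trend removed the median of the 14 was 0.08 for rotarod against control and −0.06 for formalin against rotarod, so both turned their sign. With the filter of 30 UMIs, 59 of the 75 were tested in neurons and 0 were called with edgeR in any of the 3 comparisons (2 at an unadjusted p under 0.05 in each, while 0.00642%, 0% and 0.957% of all genes were called).

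**Figure D4:**
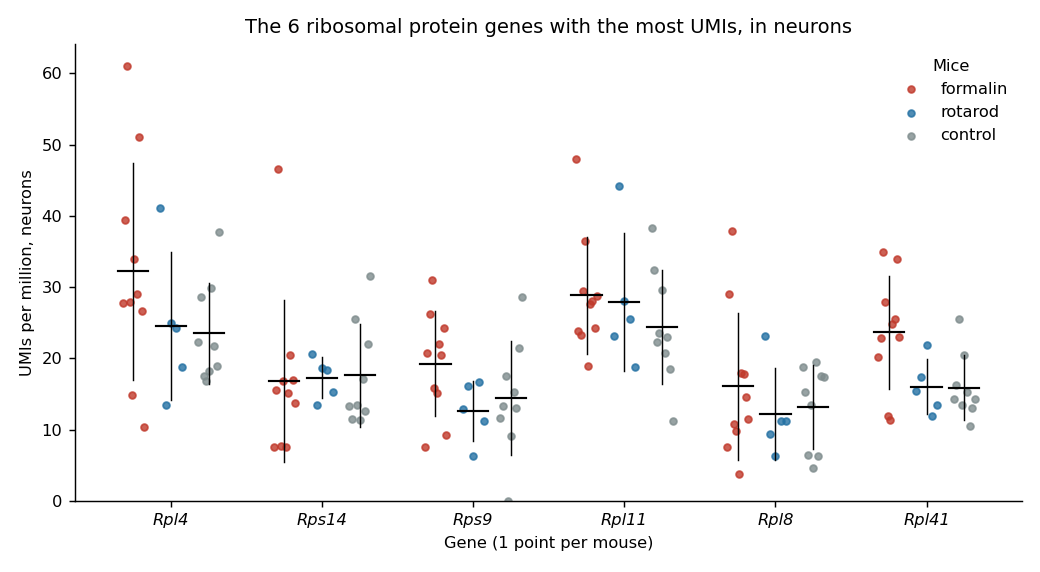
CPM in neurons for the 6 ribosomal protein genes with the most UMIs, 1 point per mouse, with formalin, rotarod and control mice left to right, horizontal lines at the group mean and vertical lines for 1 SD. The groups overlap in all 6 genes; Rpl41 averages 23.6 in formalin, 16.0 in rotarod and 15.9 in control mice.

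In the other 5 of the 6 most abundant genes, the group means differed by less than the SD of the more variable group. Rpl4 averaged 32.2 ± 15.3 CPM in neurons of formalin mice, 24.5 ± 10.4 in rotarod mice and 23.5 ± 7.08 in control mice (SD). Rps9 averaged 19.2 ± 7.37 in formalin mice, 12.6 ± 4.24 in rotarod mice and 14.4 ± 7.96 in control mice. Rps14 averaged 16.8 ± 11.4 in formalin mice, 17.3 ± 2.88 in rotarod mice and 17.6 ± 7.21 in control mice. In each of these genes the ranges implied by the SDs lay within each other or overlapped. Rpl8 averaged 16.1 ± 10.3 in formalin mice, 12.2 ± 6.43 in rotarod mice and 13.2 ± 5.91 in control mice. Rpl11 averaged 28.9 ± 8.19 in formalin mice, 27.9 ± 9.70 in rotarod mice and 24.4 ± 8.02 in control mice.

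In the other classes the groups overlapped too. The summed level in endothelial or vascular nuclei was 2705 ± 1225 CPM in formalin mice (SD, n = 9), 2244 ± 303 in rotarod mice (SD, n = 5) and 2558 ± 452 in control mice (SD, n = 9). The formalin mice spread from 975 to 4780, with replicates 1 and 6, which form 1 of the matched pairs, the lowest at 975 and 1097. With the pairs merged the formalin level was 2887 ± 1369 (SD, n = 5) in endothelial or vascular nuclei, 745 ± 360 in meningeal or Schwann nuclei and 542 ± 116 in oligodendrocytes; in astrocytes the merged pairs ran between 357 and 598, with a median of 470.5. Meningeal or Schwann nuclei had 758 ± 438, 697 ± 199 and 673 ± 123 in formalin, rotarod and control mice, oligodendrocytes 544 ± 117, 409 ± 123 and 499 ± 73.4, and astrocytes 470 ± 99.1, 474 ± 215 and 483 ± 115. In endothelial or vascular nuclei 2 of the 75 genes passed the filter, Rpl4 and Rps14, and edgeR and DESeq2 called 0 of them (0% of all 1334 genes in each comparison with edgeR). The log2 fold changes for formalin against control, rotarod against control and formalin against rotarod were 0.32, −0.27 and 0.59 for Rpl4, and −0.01, 0.19 and −0.21 for Rps14. With the filter of 30 UMIs, 17 genes were tested in oligodendrocytes, 22 in meningeal or Schwann cells, 6 in astrocytes and 29 in endothelial or vascular nuclei, and edgeR called 0 in any comparison, with between 0 and 5 at an unadjusted p under 0.05 in each. For formalin against control, rotarod against control and formalin against rotarod, the share of all genes called on this filter was 0%, 0.0117% and 0.245% in oligodendrocytes, 0%, 0.0507% and 0.0608% in meningeal or Schwann cells, 0%, 0.085% and 0.269% in astrocytes, and 0.0146%, 0.102% and 0.0878% in endothelial or vascular nuclei. A test of whether a group effect differed from that in neurons had 4 genes in oligodendrocytes, 14 in meningeal or Schwann cells and 1 in astrocytes, and edgeR called 0 of them (0% of all genes in 8 of the 9 comparisons and 0.0168% for formalin against rotarod in astrocytes); 0 or 1 in each comparison had an unadjusted p under 0.05.

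Among neurons, the family means lay between 366 and 509 CPM in control mice. The 8 family codes were read as a position (D for dorsal, M for mid, V for ventral) followed by a transmitter type (E for excitatory, I for inhibitory), while VC and VM are given as the annotation has them. In control mice the mean was 413 ± 85.9 CPM in DE, 366 ± 78.0 in DI, 509 ± 175 in ME, 407 ± 123 in MI, 402 ± 92.9 in VE, 427 ± 80.2 in VI, 427 ± 82.9 in VC and 402 ± 95.3 in VM (SD, 5 to 9 mice each). Each family's mean lay within its own SD of the mean of 430 over all neurons, which includes the neurons with no family code. The SD is the spread between mice, so this does not show that the means are equal. The level of the neurons with no code was not taken separately. The mean of rotarod mice lay below that of control mice in all 8 families. The mean of formalin mice lay above that of control mice in DE, DI, MI, VI and VC, and below it in VE with 348 ± 62.2 in formalin mice (SD, n = 7) against 402 ± 92.9 in control mice, in ME with 298 ± 263 in formalin mice (SD, n = 2) against 509 ± 175 in control mice, and in VM with 350 ± 28.1 in formalin mice (SD, n = 2) against 402 ± 95.3 in control mice. Formalin and control mice overlapped in each family. VC had the largest log2 ratio of formalin to control mice, and is named for it. In formalin mice VC stood at 588 ± 167 (SD, n = 8), against 427 ± 82.9 in control mice (SD, n = 9), with 420 ± 63.6 in rotarod mice (SD, n = 5). Of the 8 formalin mice 6 stood above the highest control mouse, and with the pairs merged 3 of 5 did (578 ± 162). Mitochondrially encoded genes in VC stood at 4545 ± 1758 CPM in formalin mice, 10023 ± 8338 in rotarod mice and 5872 ± 2311 in control mice, and their part in these values was not tested.

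**Figure D5:**
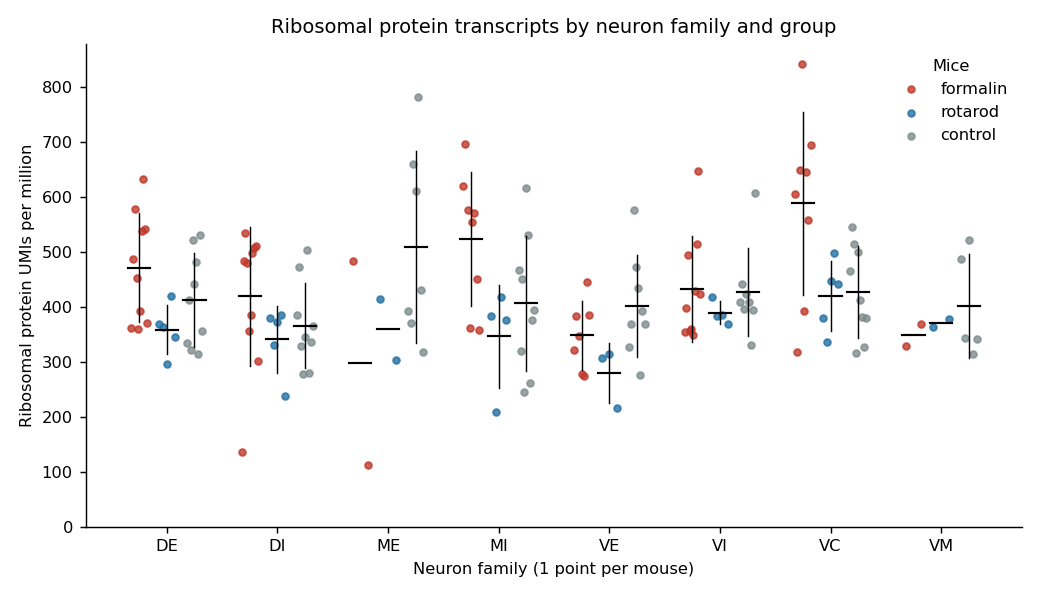
Summed ribosomal protein CPM by neuron family, 1 point per mouse with at least 5 nuclei, with formalin, rotarod and control mice left to right, horizontal lines at the mean of 2 or more mice and vertical lines for 1 SD of 3 or more. The families lie in 1 range, and 6 of 8 formalin mice in VC lie above the highest control mouse.

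Dorsal families were set against ventral families, and excitatory against inhibitory ones, in control mice. The main filter left 3072 genes and 0 of the 75, where 29.7% of genes were called for dorsal against ventral, 13.5% for DE against DI and 1.4% for VE against VI. With the filter of 30 UMIs, 36 of the 75 were tested for dorsal against ventral and 3 were called higher in dorsal families, against 11.6% of all genes called higher: Rpl32 (log2 fold change 1.75), Rps9 (1.19) and Rps26 (1.00). With DESeq2 on that filter the calls were Rps9 higher (1.04) and Rpl11 lower (−0.91), and the share of all genes that DESeq2 called is not given. On that filter edgeR and DESeq2 called 0 of 36 for DE against DI (1 at an unadjusted p under 0.05 with edgeR), where edgeR called 5.24% of all genes, and 0 of 36 for VE against VI (0 at an unadjusted p under 0.05), where it called 0.324%.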

How the data were processed

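The authors deposited a table of UMI counts per gene and nucleus, with a class, family and cluster for each nucleus, made with GRCm38/mm10 per the submitters' processing notes. Neither aligner nor strand setting is given in the sources used. The deposited counts were used without change. For each mouse, counts were summed over the nuclei of a class (at least 10 nuclei) or neuron family (at least 5), so control replicate 9 is left out of astrocytes and oligodendrocytes. A summed level is the UMIs of the 75 genes per 1000000 UMIs of that mouse and class (CPM). Sums over the genes are given as descriptions with no test. Single genes were tested on the whole table with edgeR 4.0.16 in R 4.3.3 (quasi-likelihood test, TMM factors, filterByExpr, robust fit) with Benjamini-Hochberg adjustment over all genes tested, called at an adjusted p under 0.05. Groups were compared in 1 fit per class, while classes and families were compared within control mice, each mouse being a block because its sums come from the same animal. Alternatives were DESeq2 1.42.0, other scalings and filters, at least 20 nuclei, thinning to 500 UMIs per nucleus, formalin pairs merged, and each mouse left out. The filter of 30 UMIs over the sums was added after seeing the data. The test was tested on simulated data first. Doublets were treated as the authors' annotation leaves them, with barcodes it calls discarded or leaves unlabelled outside the classes. Genes named are the called members (up to 8 in each direction), otherwise the 4 with the smallest p, the 6 members with the most UMIs, paralogs, and up to 3 called genes of each other list; the choice of any further gene followed its values. Single values of some members are not reported here. The members and lists were chosen with earlier results of these data known. Annotation is GENCODE M21, matched by symbol, and promoter sequences are RefSeq's for GRCm38.p6.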

Additional observations from a re-analysis of the deposited data

Results flagged for a closer look

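Of 37 groups of 4 to 10 mice whose summed levels were screened for a single mouse far from the rest, 3 had such a mouse, where chance gives about 1 in 20 groups. In meningeal or Schwann nuclei formalin replicate 3 stood at 1871 CPM, with the nearest other formalin mouse at 933. Among barcodes that the authors discarded, control replicate 9 stood at 1964, with the nearest other control mouse at 952. In the VI family control replicate 9 stood at 608, with the nearest other control mouse at 442.

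Barcodes outside the classes also held ribosomal protein UMIs. Over all mice pooled, discarded barcodes had 927 CPM and barcodes with no label 4285, which is above the 567 CPM of nuclei with a class. The markers in these barcodes included globin genes at 31742 CPM in discarded and 16913 in unlabelled barcodes, as means over all mice.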

How the results depend on the processing

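Depth limits these results: 14 of the 75 genes pass the main filter on low counts in neurons and fewer in each other class, and free RNA, cytoplasmic RNA and pseudogene reads could not be separated from the counts. The cause of each change below was not tested, apart from the number of genes that a filter admits.

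For endothelial or vascular nuclei against neurons, the number of ribosomal protein genes called (6) was 33 with no filter, 33 with the filter of 30 UMIs, 13 with at least 20 nuclei and 0 with thinned nuclei under the main filter. Thinning lowers the counts that the filter uses, so this 0 need not mean genes that were tested and not called. Shares of all genes called are given above for the main filter and, with edgeR's TMM factors, for the filter of 30 UMIs. For the other settings in this paragraph no share is given, so those counts describe only how the number moved. With the filter of 30 UMIs it was 31 with DESeq2, 33 with DESeq2's size factors, 32 with total UMIs and 13 with thinned nuclei. In the order no filter, the filter of 30 UMIs, DESeq2's size factors on it and total UMIs on it, oligodendrocytes had 1, 1, 2 and 2 calls, meningeal or Schwann cells 3, 9, 10 and 14, astrocytes 1, 3, 2 and 2, and dorsal against ventral families 2, 3, 3 and 3. On that filter DESeq2 gave 9 in meningeal or Schwann cells, 2 in astrocytes and 2 for dorsal against ventral families, and thinned nuclei gave 2 in meningeal or Schwann cells and 1 in astrocytes. With at least 10 nuclei per family, dorsal against ventral gave 1. With 1 control mouse left out, the calls ranged over 6 to 8 under the main filter and 29 to 33 otherwise in endothelial or vascular nuclei, 0, 2 or 5 to 10 (7 without replicate 5) in meningeal or Schwann cells, 0 to 3 in oligodendrocytes, 0 to 4 in astrocytes and 0 to 3 for dorsal against ventral families.

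Among the log2 ratios of summed levels, thinning gave −0.43 for rotarod over control in neurons, 0.36 for rotarod over control and −0.16 for formalin over rotarod in meningeal or Schwann cells, and −0.40 for formalin over rotarod in astrocytes. In DE thinning gave −0.69 for rotarod over control and 1.00 for formalin over rotarod. In DI it gave −0.42 for formalin and −0.83 for rotarod over control. In VE it gave −0.90 for formalin and −1.62 for rotarod over control, and 0.71 for formalin over rotarod. In VC it gave 0.51 for rotarod over control and 0.14 for formalin over rotarod. Over neurons in control mice it gave 0.31 for meningeal or Schwann cells, 2.24 for endothelial or vascular cells, −0.011 for oligodendrocytes and −0.0499 for astrocytes.

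The small subunit alone gave −0.57 for rotarod over control in oligodendrocytes (−0.0469 for the large subunit), −0.51 in DE and 0.32 in VC. It gave −0.14 in DI, −0.64 in VE and −0.53 in VI for formalin over control, and −0.12 in DI, −0.11 in VE and −0.37 in VI for formalin over rotarod. The large subunit alone gave 0.31 and 0.42 for these comparisons in VI. Over neurons in control mice the small subunit gave 0.59 for oligodendrocytes (−0.021 for the large), 0.47 for astrocytes and 2.86 for endothelial or vascular cells. Without the 5 most abundant genes, formalin over rotarod was 0.63 in oligodendrocytes. Without formalin replicate 3 the ratio in meningeal or Schwann cells was −0.085 over control (up to 0.27 with another mouse left out) and −0.14 over rotarod (up to 0.26). The fold change of Rps14 for formalin against control in endothelial or vascular nuclei (−0.01) turned to 0.011 with total UMIs and to 0.10 with pairs merged, and lay between −0.15 and 0.11 without single mice.

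Formalin and rotarod mice share replicate numbers 1 to 5, but same-numbered mice did not deviate together (correlations −0.014, 0.050, −0.103, 0.043 and −0.089 over 8365 genes), so the numbers do not pair the mice. With the replicate number as a block, 0 ribosomal protein genes were called in any class under the main filter, and the number tested there is not given. Without the mouse as a block, endothelial or vascular nuclei against neurons again gave 6 calls.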

Other observations

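Microglia had too few nuclei for a group comparison, and a single nucleus carried most of their ribosomal protein UMIs. The 165 nuclei pooled gave 3832 CPM, and 1874 without 1 nucleus of rotarod replicate 3. That nucleus held 424 ribosomal protein UMIs among 9762 (4.34%), from 45 of the 75 genes, with 278 UMIs on pseudogene rows and 0 UMIs of microglial markers and of globin genes. It held 53.4% of the ribosomal protein UMIs of the class.

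Of the 43 neuron clusters of the annotation, 36 had at least 50 nuclei. Their pooled levels ran from 315 CPM in VE-1 to 566 in VI-2, with a median of 418, and 0 of 36 reached 975, the lowest level of endothelial or vascular nuclei in a single mouse. VI-2 held 219 nuclei from 10 mice. The level had a Spearman rho of −0.59 with the mean UMIs per nucleus over the 36 clusters, which share libraries, and the clusters were named after their values were seen.

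In neurons, edgeR called 0 of 19 tested translation factors and 0 of 11 tested ribosome biogenesis genes for formalin against rotarod, while Mrps5, a mitochondrial ribosomal protein, was the 1 of 36 tested in its list that was called (log2 fold change 0.86), where 2.15% of all 9103 genes tested were called.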
